A study of Mus musculus with 2 samples.

Results

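Of 4133 Gata1 peaks on the nuclear chromosomes, 243 (5.88%) lay at the end of a noncoding gene and at no end of a protein-coding gene. Noncoding genes are those that RefSeq does not class as protein-coding: long noncoding RNA (lncRNA), microRNA, transfer RNA (tRNA), small nucleolar RNA (snoRNA), small nuclear RNA (snRNA), pseudogenes and a few others. A peak was taken when its midpoint lay within 1 kb of either end of such a gene and further than 1 kb from both ends of every protein-coding gene. The rule used positions only, with no measure of binding strength. Another 833 peaks (20.2%) lay within 1 kb of a protein-coding gene end, and 107 of those lay at a noncoding end as well. The remaining 3057 peaks (74.0%) lay further than 1 kb from any gene end.

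The peaks came from chromatin immunoprecipitation with sequencing (ChIP-seq) in mouse cells. Embryonic stem cells carrying a Runx1-ires-GFP and a Gata1::mCherry reporter were differentiated for 5 days as embryoid bodies. Cells with both reporters, which the series' design text calls primitive erythroid, were sorted and fixed in 1% formaldehyde. Per the labels, material from several sorts was pooled, and both libraries of the series, 1 with a rabbit antibody to Gata1 and 1 titled input chromatin, came from these same reporter cells. The antibody field of the input names a rabbit IgG while its description says that cells were too few for an IgG ChIP, and no file of it was analysed here. With 1 ChIP library there is no replicate: peaks or genes are the units of every test and interval below, and none of them says how binding varies between cultures. A peak list holds no expression values, so the sorted cells could not be checked against their markers and no noncoding gene can be said to have been transcribed.

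Gata1, a transcription factor with zinc fingers, is needed for red cells and megakaryocytes to mature. It binds DNA at the letters GATA, most often within AGATAA or TGATAA. It works in a complex with the bridging proteins Lmo2 and Ldb1 and the factor Tal1, and with the cofactor Fog1. Many enhancers are transcribed, so the annotated start of a lncRNA can lie at an enhancer of a neighbouring gene as well as at a promoter of its own.

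The sequences under these peaks are shown first for the lncRNA genes whose annotated start lay beside the peak midpoint. RefSeq windows of 300 bases, from 250 bases before to 50 after an annotated start, held the midpoint of 28 noncoding-end peaks. Of these 28 windows, 21 (75.0%) held AGATAA or TGATAA on either strand, against 6115 of all 32851 windows of this length (18.6%) and 2742 of 11588 lncRNA windows (23.7%). The following 7 windows, chosen after their matches were seen, are those with 2 or 3 matches at peaks described below or with 3 matches, and the window at Bloodlinc, which has none. Each is on build GRCm38.p6 (mm10), in the direction of transcription, with matches to either motif or its reverse complement (TTATCT for the first and TTATCA for the second) in capitals.
Gm39895: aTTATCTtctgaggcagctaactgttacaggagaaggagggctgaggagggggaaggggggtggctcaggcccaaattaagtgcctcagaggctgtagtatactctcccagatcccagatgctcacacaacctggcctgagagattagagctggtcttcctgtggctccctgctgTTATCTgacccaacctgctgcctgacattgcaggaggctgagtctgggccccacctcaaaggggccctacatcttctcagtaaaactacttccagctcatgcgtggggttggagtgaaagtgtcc
Gm40374: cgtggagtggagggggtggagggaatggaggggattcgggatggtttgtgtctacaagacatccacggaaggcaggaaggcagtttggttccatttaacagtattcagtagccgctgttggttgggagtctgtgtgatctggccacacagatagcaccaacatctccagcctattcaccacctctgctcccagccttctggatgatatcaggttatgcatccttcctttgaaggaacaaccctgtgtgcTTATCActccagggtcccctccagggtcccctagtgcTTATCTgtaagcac
A930019D19Rik: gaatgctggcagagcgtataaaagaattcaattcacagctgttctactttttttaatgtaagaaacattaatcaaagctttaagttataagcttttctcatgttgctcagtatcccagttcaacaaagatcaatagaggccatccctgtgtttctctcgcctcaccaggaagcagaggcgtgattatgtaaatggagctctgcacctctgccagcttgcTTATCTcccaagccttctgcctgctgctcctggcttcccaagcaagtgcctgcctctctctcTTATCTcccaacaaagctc
Gm52308: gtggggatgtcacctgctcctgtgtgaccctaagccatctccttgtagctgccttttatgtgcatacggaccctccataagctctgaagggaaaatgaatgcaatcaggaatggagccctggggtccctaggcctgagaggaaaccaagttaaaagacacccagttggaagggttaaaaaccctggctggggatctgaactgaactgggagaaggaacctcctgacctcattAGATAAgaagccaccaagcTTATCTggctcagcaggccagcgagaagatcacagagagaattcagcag
Gm46298: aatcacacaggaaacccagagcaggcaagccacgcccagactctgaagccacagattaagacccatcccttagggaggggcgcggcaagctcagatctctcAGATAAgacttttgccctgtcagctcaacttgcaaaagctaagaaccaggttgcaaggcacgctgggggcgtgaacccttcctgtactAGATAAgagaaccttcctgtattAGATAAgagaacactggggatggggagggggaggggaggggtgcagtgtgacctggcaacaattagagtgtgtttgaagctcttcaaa
Gm31851: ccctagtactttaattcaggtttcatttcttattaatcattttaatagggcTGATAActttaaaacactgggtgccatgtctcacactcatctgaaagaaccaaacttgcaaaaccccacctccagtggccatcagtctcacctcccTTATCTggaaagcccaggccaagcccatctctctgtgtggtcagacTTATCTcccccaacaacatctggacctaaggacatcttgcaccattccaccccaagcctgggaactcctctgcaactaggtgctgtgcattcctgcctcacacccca
Gm34253: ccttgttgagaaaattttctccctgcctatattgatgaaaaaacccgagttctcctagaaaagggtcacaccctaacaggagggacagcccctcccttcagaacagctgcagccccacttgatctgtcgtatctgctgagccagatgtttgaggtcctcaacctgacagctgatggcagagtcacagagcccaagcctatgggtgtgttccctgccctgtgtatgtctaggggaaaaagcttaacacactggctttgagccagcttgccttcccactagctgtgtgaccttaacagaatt
The windows lie at chr2:103893810-103894109 on the plus strand (Gm39895), chr12:32143117-32143416 on the plus strand (Gm40374), chr2:146259036-146259335 on the plus strand (A930019D19Rik) and chr17:48272358-48272657 on the minus strand (Gm52308). Those of Gm46298 (chr11:108910910-108911209, minus strand), Gm31851 (chr2:133429809-133430108, minus strand) and Gm34253 (chr11:102375219-102375518, plus strand) complete the set. In Gm52308 a match lay 5 bp before the peak midpoint and another 14 bp after it, and in Gm40374 the matches lay 6 and 43 bp after it. In A930019D19Rik, matches lay 20 bp before and 42 bp after the midpoint. Gm46298 carries AGATAA 3 times, 20 bp before and 68 and 91 bp after the midpoint. In Gm31851, matches lay 123 and 27 bp before the midpoint and 19 bp after it. The Gm39895 window has TTATCT 132 bp before and 42 bp after the midpoint. Each of these 6 windows thus had a match within 50 bp of the peak midpoint.

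Mature microRNAs are shown for the genes whose ends lay closest to a peak, and for Mir132 and Mir212, which share a peak. The seed, bases 2 to 8, is in capitals.
mmu-miR-132-3p: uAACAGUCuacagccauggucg
mmu-miR-212-3p: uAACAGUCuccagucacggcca
mmu-miR-132-5p: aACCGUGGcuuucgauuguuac
mmu-miR-212-5p: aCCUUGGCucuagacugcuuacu
mmu-miR-101b-3p: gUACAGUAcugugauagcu
mmu-miR-1931: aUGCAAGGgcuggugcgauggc
mmu-miR-3473c: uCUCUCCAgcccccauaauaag
mmu-miR-1955-5p: aGUCCCAGgaugcacugcagcuuuu
The RefSeq table held 21 mature sequences for the 13 microRNA genes at noncoding-end peaks. Among them, miR-132-3p and miR-212-3p share the seed AACAGUC, and no other pair shares one.

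lncRNA genes made up most of the set. The nearest noncoding end belonged to a lncRNA gene for 194 of the 243 peaks (79.8%), to a pseudogene for 18 (7.41%), to a microRNA gene for 12 (4.94%) and to a tRNA gene for 10 (4.12%). The rest were nearest a snoRNA gene (5 peaks), an snRNA gene (1 peak) or a gene of another class (3 peaks). Over all genes, with every peak counted, 923 of 21779 protein-coding genes had a peak within 1 kb of an end (4.24%, 95% Wilson interval 3.98 to 4.51), against 360 of 27824 noncoding genes (1.29%, 1.17 to 1.43). The share was 2.27% of lncRNA genes (287 of 12639, 2.03 to 2.55), 1.14% of microRNA genes (14 of 1228, 0.680 to 1.90) and 0.827% of snoRNA genes (11 of 1330, 0.462 to 1.47). Pseudogenes were at 0.181% (19 of 10510, 0.116 to 0.282), snRNA genes at 0.201% (2 of 997, 0.0550 to 0.728) and the other classes at 0.558% (4 of 717, 0.217 to 1.43). tRNA genes were at 5.71% (23 of 403, 3.83 to 8.42), but those 23 genes shared 15 peaks. Every class except tRNA thus had a smaller share than protein-coding genes, with no overlap of the intervals. Differences between classes were not tested, and gene length differed between them: the median was 17217 bp for protein-coding genes, 8456 bp for lncRNA genes and 72.0 bp for tRNA genes. The intervals cover counting error only. Read depth is unknown and the peak threshold is not given in the sources used here, so binding below that threshold would leave a gene uncounted.

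**Figure D1:**
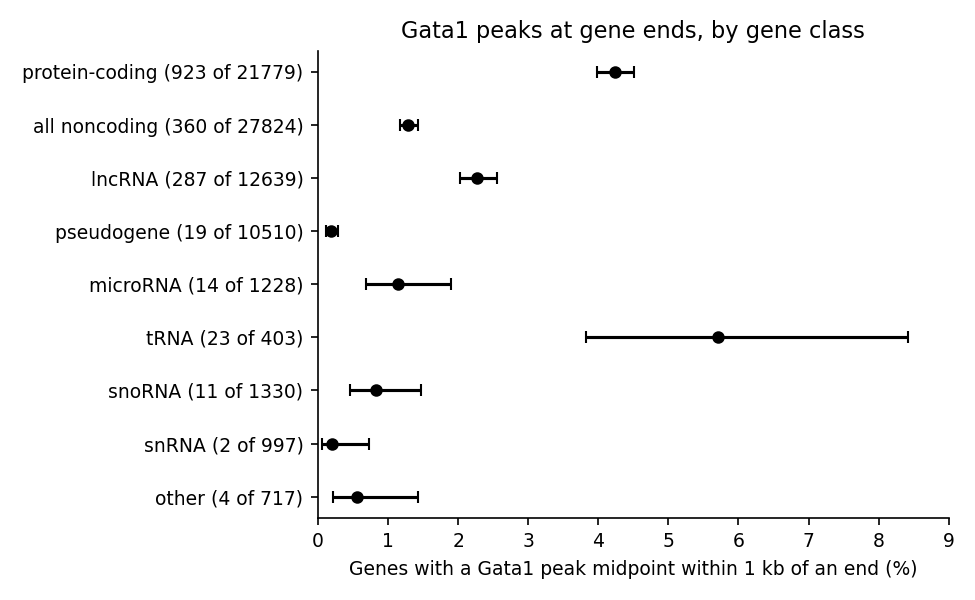
Share of genes of each class with a Gata1 peak midpoint within 1 kb of an end, in percent, with 95% Wilson intervals as bars and the counts in the labels. Protein-coding genes (4.24%) sit above every noncoding class except tRNA (5.71%), whose interval is the widest.

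The 243 peaks had 238 different nearest noncoding genes and 257 noncoding genes within 1 kb. Most were predicted genes without an assigned name: 175 peaks (72.0%) had a nearest gene whose symbol starts with Gm or LOC. The share of such symbols over all noncoding genes is not given here, so this value describes the set only. 6 genes had a peak of this kind at more than 1 place: the lncRNA genes Bloodlinc, Gm13842, Gm33074, Gm34880 and Gm34964 and the pseudogene Gm9243, whose 2 peaks lay inside the body of Elf1. 17 peaks had 2 or more noncoding genes within reach. The most crowded, chr4:132309281-132309680, had 4: Snora16a at 15 bp, Snora44 at 473 bp, Snora61 at 827 bp and, at 802 bp, Snhg12, the host gene of these snoRNAs. By chromosome, the share of peaks in the set was highest on chromosome 3 (19 of 200, 9.50%), and 1 of the 42 X peaks belonged to it. That peak lay 552 bp inside the start of Gm34661, 53.2 kb from Ddx3x. None of the 3 Y peaks did.

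Noncoding-end peaks lay at the start of their gene less often than coding-end peaks did. Strand was known from the RefSeq promoter and microRNA tables for 156 of them, and 105 (67.3%, 95% Wilson interval 59.6 to 74.2) were nearest the start, against 586 of 682 coding-end peaks (85.9%, 83.1 to 88.3). The odds ratio was 0.337 (95% interval 0.223 to 0.515, adjusted p = 1.4e-06, two-sided Fisher's exact test, Benjamini-Hochberg over the 5 comparisons of the peak classes). The rule itself takes away peaks at noncoding starts that lie beside a coding gene end, as at a shared promoter, and leaves them among the coding-end peaks. The test therefore cannot separate the part of the rule in this difference from the rest. With the peaks beside coding ends kept, 162 of 225 (72.0%) were at a start. They also stand among the coding-end peaks, so the classes then share peaks and no test of that difference is given. Among genes of 2 kb or longer, in which the windows at both ends cannot overlap, the shares were 66.7% (82 of 123) and 86.9% (573 of 659), with an odds ratio of 0.300 (adjusted p = 1.1e-06, same exact test). The rule takes peaks out of this comparison in the same way.

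Among noncoding-end peaks, those at starts had a shorter median distance from the end than those at stops. At the start the median distance was 306 bp, and 45 of 105 peaks (42.9%) lay within 200 bp, so that the 400-bp interval covered the annotated start. At the stop the median was 437 bp, and 5 of 51 (9.80%) lay within 200 bp. Those within 200 bp of a stop include the peaks at Mir3473c and Mir101b, genes of 81 and 97 bp whose ends a 400-bp interval does not tell apart. The same values for coding-end peaks were 324 bp and 35.5% at starts, and 538 bp and 16.7% at stops. At starts, 48 of the 105 noncoding-end peaks (45.7%) lay inside the gene, and at stops 31 of 51 (60.8%). These splits were not tested. For coding-end peaks the corresponding shares were 53.2% and 38.5%.

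**Figure D2:**
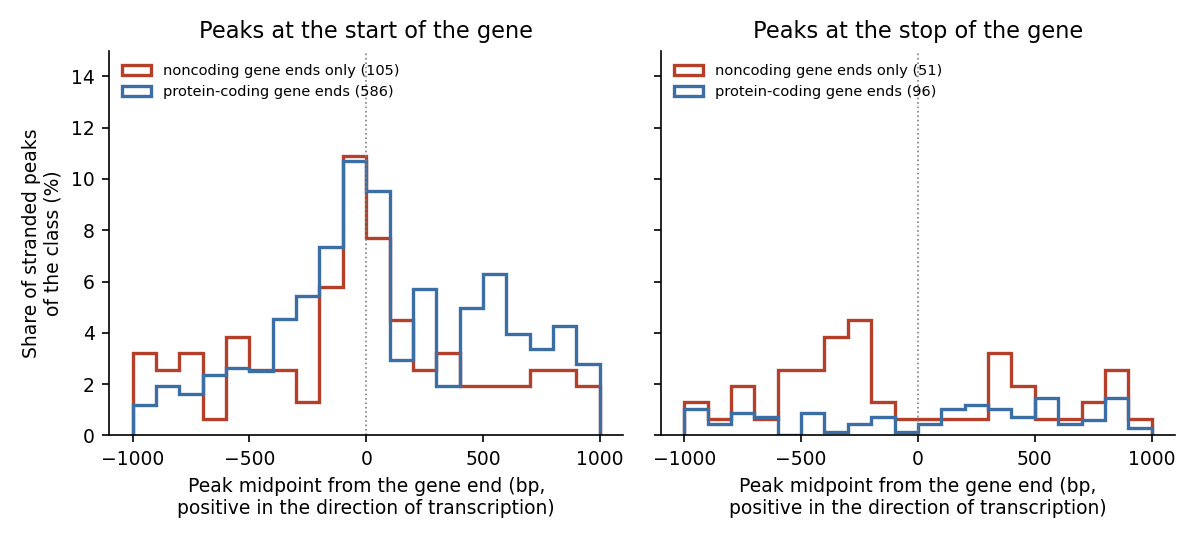
Position of peak midpoints around the nearest gene start (left) and stop (right), in bp, as the percentage of all peaks of the class with a known strand, in bins of 100 bp. Red lines are noncoding-end peaks (105 at starts, 51 at stops) and blue lines coding-end peaks (586 and 96). Both classes are highest in the bins next to the start, and red lies above blue over much of the stop panel.

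Over all ends, the median distance was 388 bp (quartiles 130 and 654) for noncoding-end peaks and 360 bp (135 and 642) for coding-end peaks. The rule bounds this distance at 1 kb in both classes, so the values are a description, and with a limit of 2 kb the medians differed by 268 bp. 78 noncoding-end peaks (32.1%) and 276 coding-end peaks (33.1%) lay within 200 bp. The midpoint was inside the gene for 117 of 243 (48.1%, 41.9 to 54.4) against 427 of 833 (51.3%, 47.9 to 54.6), an odds ratio of 0.883 (0.656 to 1.19, adjusted p = 0.48, two-sided Fisher's exact test). This result depended on the limit and on the gene classes taken. The odds ratio was 1.31 with ends within 500 bp (adjusted p = 0.18) and 0.668 within 2 kb, which passed (adjusted p = 1.0e-03, both by the same exact test). For lncRNA genes alone, within 1 kb, it was 1.24 and did not pass (adjusted p = 0.26, same exact test). Gene length bounds this measure, since a short gene leaves less room for a midpoint inside it. The median length was 1831 bp over all noncoding genes and 17217 bp over protein-coding genes. These tests therefore cannot separate the place of binding from gene length, whose part was not tested.

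The GATA motif was found more often in the windows of noncoding-end peaks than in those of coding-end peaks. As with starts, the rule takes peaks beside a coding gene end out of the first class and leaves them in the second. What this does to the motif shares was not tested. AGATAA or TGATAA was present in 21 of 28 windows (75.0%, 56.6 to 87.3), against 82 of 195 windows that held the midpoint of a coding-end peak (42.1%, 35.3 to 49.1). The odds ratio was 4.13 (1.59 to 12.0, adjusted p = 0.0048, two-sided Fisher's exact test over the same 5 comparisons). Over all promoter windows, 15.9% of coding and 23.7% of lncRNA windows held it. Base composition moved with this result: median GC was 52.2% (quartiles 49.0 and 55.2) in the 28 windows, 60.3% (56.3 and 64.8) in the coding-end windows and 52.7% over all windows. Among windows at or below that 52.7%, the motif was in 12 of 16 (75.0%) and 14 of 24 (58.3%), an odds ratio of 2.14 (0.450 to 11.7, adjusted p = 0.48, same exact test), which did not pass.

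Of the 28 windows, 7 had no match, 12 had 1, 7 had 2 and 2 had 3. The nearest match lay a median of 19 bp from the peak midpoint over the 21 windows that had one, and within 50 bp in 18 of them (85.7%). In coding-end windows the median was 13 bp, with 67 of 82 (81.7%) within 50 bp. The plain letters GATA were in 92.9% of the 28 windows, 83.1% of coding-end windows, 57.9% of all windows and 66.5% of all lncRNA windows. With these letters in place of the longer motif, the odds ratio between the peak classes was 2.65 and did not pass (adjusted p = 0.45, two-sided Fisher's exact test). The window of Gm34253 is one that has GATA once without the longer motif, while that of Gm40371, with its start 23 bp from the midpoint and a GC content of 62.3%, has neither.

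Other motif letters, searched on both strands as a description, differed less or rested on few windows. TGTGGT, the core bound by Runx factors, was in 9 of the 28 windows (32.1%, 17.9 to 50.7), in 25 of 195 coding-end windows (12.8%, 8.84 to 18.2) and in 16.8% of all windows. CACCC, bound by Krüppel-like factors, was in 64.3%, 65.6% and 57.5% of these in turn. CANNTG, the E-box bound by Tal1 with its partners, was in 78.6%, 56.4% and 72.3%. TGANTCA, bound by AP-1 and NF-E2 type factors, was in 2 of the 28 (7.14%), in 4.62% and in 7.81%. A match is a description of letters and not a bound site. GATA can lie within the longer motif, and the other letters were counted whether or not they overlapped another match.

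**Figure D3:**
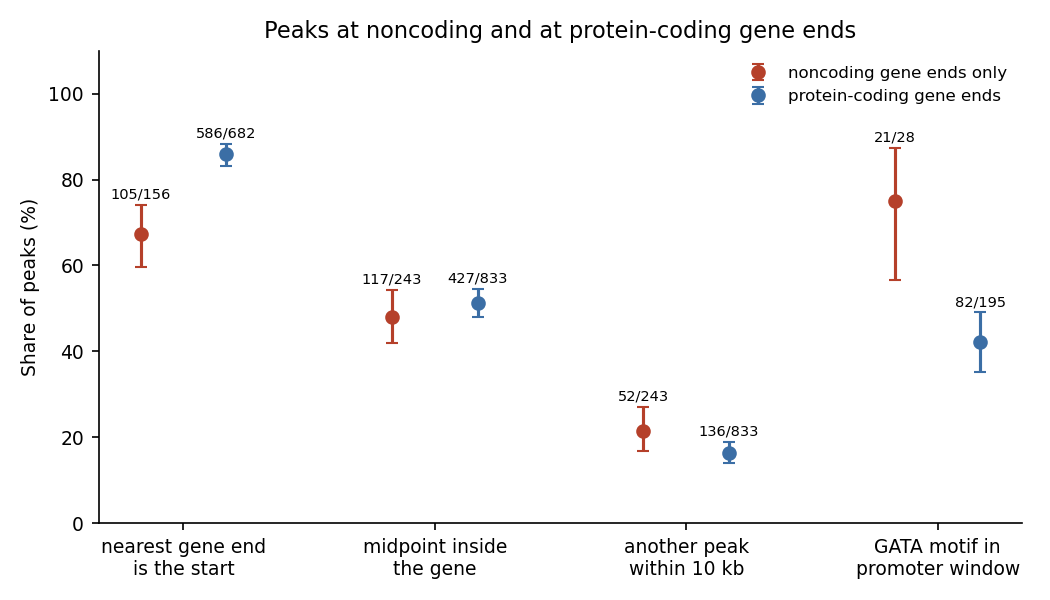
Share of peaks, in percent, for 4 features in noncoding-end peaks (red) and coding-end peaks (blue), with 95% Wilson intervals as bars and counts above them. The start share (67.3% against 85.9%) and the motif share (75.0% against 42.1%) differ with no overlap of the intervals, and the other features overlap.

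Of the noncoding-end peaks, 52 of 243 (21.4%, 16.7 to 27.0) had another Gata1 peak within 10 kb, against 136 of 833 (16.3%, 14.0 to 19) and 690 of all nuclear peaks (16.7%). The odds ratio was 1.40 (0.955 to 2.02, adjusted p = 0.11, two-sided Fisher's exact test), which did not pass. With ends within 500 bp in place of 1 kb it was 1.92 and passed (adjusted p = 0.0079, same exact test). The median distance to the nearest other peak was 53.1 kb, against 69.3 kb for coding-end peaks.

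9 pairs of noncoding-end peaks lay within 10 kb of each other, 2 of them at clusters of tRNA genes. On chromosome 1, chr1:171033681-171034080 (n-TNgtt6 at 62 bp) and chr1:171038230-171038629 (n-TLcag3 at 185 bp, n-TGtcc2 at 361 bp) lay 4.55 kb apart. On chromosome 13, in the histone gene region by H4c8, the peaks at n-TQttg4 (71 bp) and n-TRtcg1 (59 bp) lay 7.39 kb apart. The lncRNA pairs were those of Gm34964 (2.10 kb apart), Bloodlinc (2.32 kb), Gm13842 (2.55 kb), Gm34880 (4.26 kb), Gm52598 with Gm52599 (4.66 kb) and Gm33074 (8.04 kb, inside Iqgap2). The last was a pair of pseudogenes, Gm18792 and Gm7541, 9.79 kb apart at Abat.

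88 noncoding-end peaks (36.2%) lay inside the body of a protein-coding gene. For 50 of these both strands were known, and the noncoding gene ran against its host in 38 and with it in 12. The same split over all noncoding genes inside protein-coding genes was not computed, so these counts describe the set only. The other 155 lay from 1.03 to 372 kb from the nearest protein-coding gene, with a median of 17.2 kb. 65 were within 10 kb of it, 125 within 50 kb and 13 further than 100 kb. Those furthest away were at Gm44689 (372 kb from Mctp2), Gm30728 (317 kb from Zeb2), Gm33041 (281 kb from Diras2), 4930431P22Rik (203 kb from Serp2) and Gm41062 (187 kb from Ankrd55). Gene ends stand for starts here, and a protein-coding gene can have further starts inside its body. Of 237 noncoding-end peaks on chromosomes with starts in the RefSeq table, 9 (3.80%) lay within 1 kb of an annotated start of a protein-coding gene: Agrn, Anks3, Arfip1, Gse1, Pheta2, Por, Ptges, Rusf1 and Sin3a. Starts were missing for parts of these chromosomes too, so more of the 237 could lie by a coding start. For the peak at A530072M11Rik, which lay 1.21 kb from Ripk2, the nearest coding start at hand was 5521073 bp away.

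Known blood genes were near some of the peaks. Of 139 listed genes for erythroid transcription factors, globins, haem and iron, the red cell membrane, platelets and growth factor signalling, 1 or more lay within 50 kb of 9 of the 243 peaks (3.70%, 1.96 to 6.89), against 210 of all nuclear peaks (5.08%, 4.45 to 5.79) and 55 coding-end peaks (6.60%, 5.11 to 8.50). By list these were 3 peaks for transcription factors, 3 for haem and iron, 2 for the membrane, 1 for signalling, and 0 for globin and for platelet genes. The 9 peaks reached 7 different listed genes. The interval holds the share over all peaks, and no test was made. Within 10 kb the share was 2.06% against 3.58% of all nuclear peaks, and within 100 kb the order turned, at 7.41% against 6.75%. Distance is not evidence that a peak acts on a gene.

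The transcription factor genes with such a peak in or beside them were those of Gata1 cofactors and a Krüppel-like factor. At Zfpm1, which encodes Fog1, chr8:122284619-122285018 lay inside the gene, 356 bp within the start of the lncRNA Gm39269, with another peak 1.98 kb away. Cbfa2t3 encodes Eto2, a corepressor of the Gata1 and Tal1 complex. The peak chr8:122700711-122701110 lay 1.58 kb from it and 750 bp past the stop of Gm10612. Inside Klf13, chr7:63896826-63897225 lay 641 bp within the start of Gm27252.

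The lncRNA Gm39895 had a peak at its start 64.0 kb from Lmo2. The peak chr2:103893747-103894146 lay 114 bp before that start, inside the body of Gm34948, and Lmo2 was its nearest protein-coding gene. The nearest other Gata1 peak was 230 kb away. The window of Gm39895 printed above has 2 TTATCT matches. Further listed transcription factors lay between 50 and 100 kb from a peak of the set: Hhex at 53.4 kb (Gm32294), Ikzf1 (Gm51937) and Fli1 (Gm31871) both at 64.0 kb, Myb at 67.7 kb, Tcf3 at 77.3 kb (Gm51809) and Nfe2l2 at 87.5 kb (Gm13657). Of these, Myb encodes a factor of blood progenitors, and its peak chr10:21228482-21228881 lay between Myb and Hbs1l, where the ends of 2 lncRNA genes meet: 223 bp past the stop of Gm33671 and 231 bp inside an end of Gm33728. Other Gata1 peaks lay 31.9 kb from it on the Myb side and 40.2 kb on the Hbs1l side.

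Bloodlinc, a lncRNA known from red cell precursors, lies beside Slc4a1, the anion exchanger of the red cell membrane. The peak chr11:102375158-102375557 lay 112 bp before the start of Gm34253 and 194 bp from an end of Bloodlinc, 10.1 kb from Slc4a1. The peak chr11:102377476-102377875 lay inside Gm34253, 655 bp beyond the other end of Bloodlinc and 12.4 kb from Slc4a1. A further peak, inside Slc4a1, lay 11.5 kb from the first of them. Itga2b, an integrin of megakaryocytes, was 77.9 and 75.6 kb away.

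Haem and iron genes came from 2 places. At Glrx5, a mitochondrial protein of iron-sulphur cluster assembly, chr12:105038982-105039381 lay inside the gene and 785 bp within the start of Gm46374, and chr12:105025616-105026015 lay 6.80 kb away, 941 bp inside Gm46375. These had other peaks 4.61 and 2.00 kb away. Tfrc, the transferrin receptor, lay 33.4 kb from the peak at the stop of Tnk2os. Pim1, a kinase induced by cytokine signals, lay 43.2 kb from the peak at the stop of Gm26885, chr17:29447346-29447745. Beyond 50 kb, Cd47, a membrane protein that protects red cells from being engulfed, lay 51.0 kb from the peak at Gm16619. Treml1, a platelet receptor gene, lay 87.5 kb from the peak at Gm52308.

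**Figure D4:**
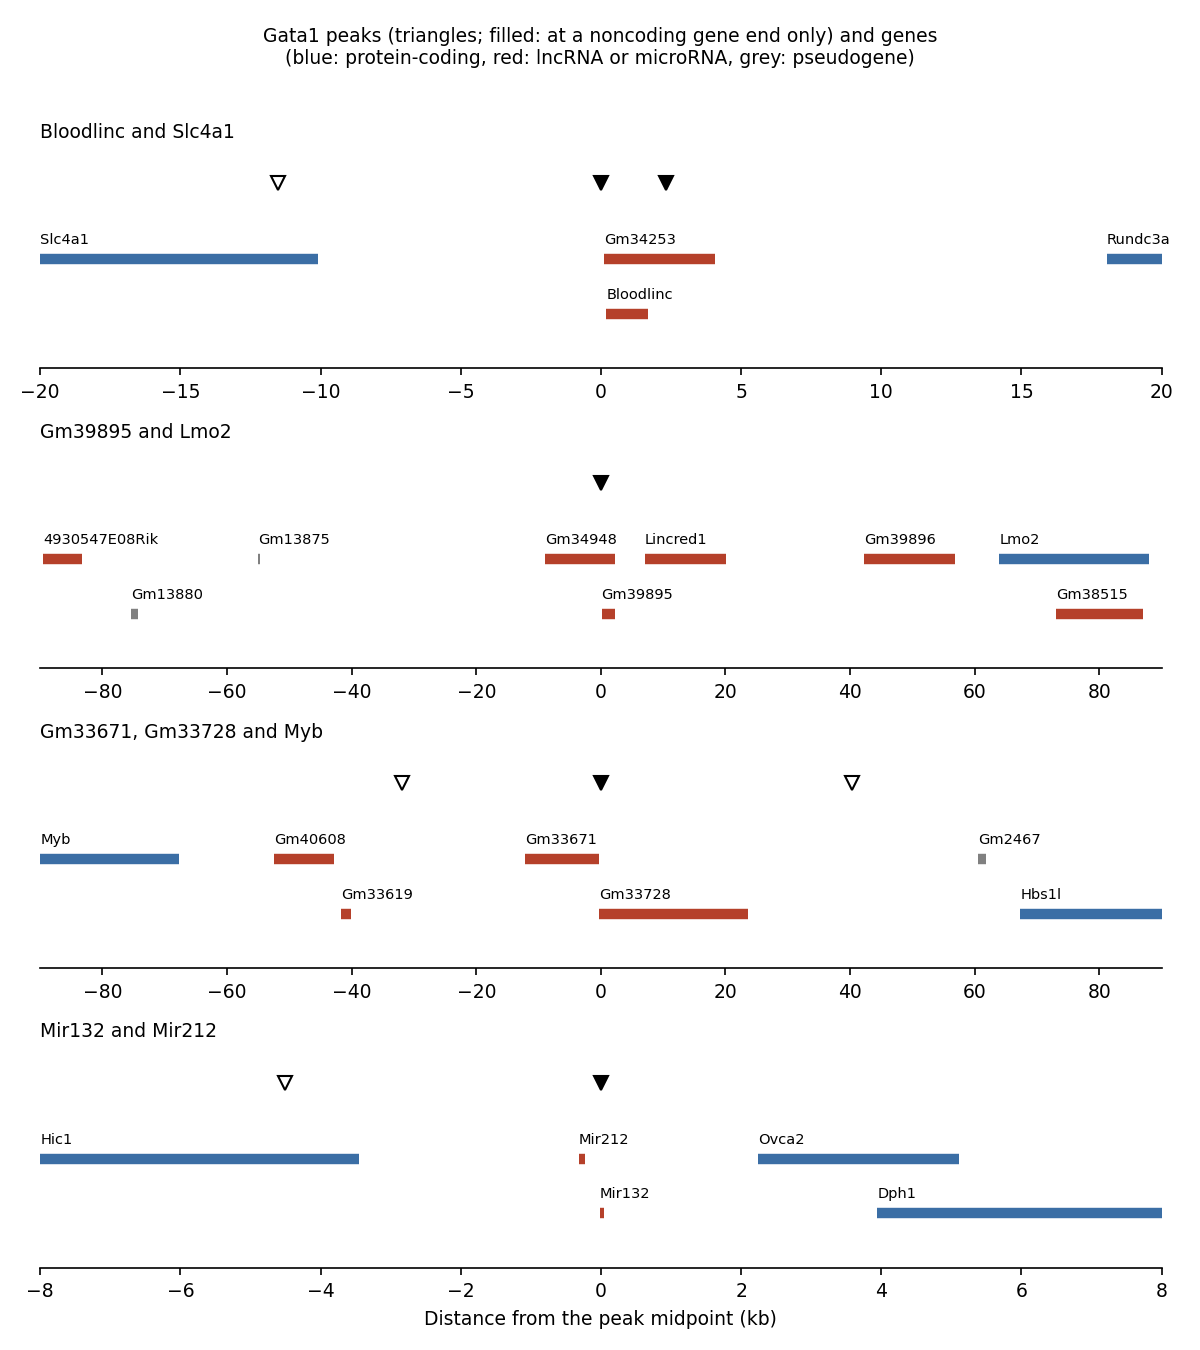
Gata1 peaks (triangles, filled for noncoding-end peaks) and annotated genes (bars) around 4 peaks, by distance from the peak midpoint in kb. Bloodlinc has 2 filled peaks 2.32 kb apart and an open one in Slc4a1, Gm39895 has no other peak within the drawn span, the Myb peak lies between 2 open ones, and Mir132 and Mir212 share 1 peak.

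12 peaks lay at 13 microRNA genes. Their entries are 63 to 119 bp long, so start and stop name ends of the entry that a 400-bp peak does not tell apart. The closest was Mir1931, whose start was 1 bp from the midpoint of chr10:93162585-93162984, inside Cdk17. Mir3473c lay 6 bp away (chr1:191998361-191998760, inside Traf5) and Mir1955 25 bp away (chr2:92191803-92192202, inside Phf21a). The peak chr11:75173501-75173900 lay over Mir132, 18 bp inside its start, and 222 bp past the end of Mir212. It was 2.24 kb from Ovca2, with another Gata1 peak 4.50 kb away, inside Hic1. These microRNAs with a shared seed therefore had 1 peak between them. Mir101b (149 bp, inside Rcl1) was on a list of microRNA genes known from blood cells. It was 1 of 69 matched genes of that list with a Gata1 peak at an end, beside 14 of all 1228 microRNA genes (1.14%). Among the others, distances ran from 306 bp at Mir760 through Mir5123 (329 bp), Mir3103 (377 bp), Mir6976 (437 bp), Mir3100 (571 bp) and Mir5134 (576 bp) to 928 bp at Mir6931. Of the 12 peaks, 10 lay inside a protein-coding gene.

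tRNA genes lay at 11 of the peaks, 16 genes in all, at distances from 21 bp (n-TYgta10, chr14:51089400-51089799) to 977 bp (n-TRtct2, which shares the peak of Mir760). n-TDgtc14 lay at 89 bp and n-TAtgc5 at 545 bp from chr5:125408728-125409127. Single genes were n-TNgtt10 (277 bp), n-TMcat16 (313 bp), n-TCgca55 (504 bp) and n-TMcat12 (683 bp). The snoRNA genes, besides those of Snhg12, included LOC115489633 (79 bp), Snord17 (187 bp, inside Snx5) and LOC115488421 (540 bp), and the snRNA gene was LOC115490478 (232 bp). Other classes were the misc_RNA gene 4930451G09Rik (4 bp, inside Anks3), the 5S ribosomal gene n-R5s25 (413 bp) and Gnasas1 (646 bp, inside Gnas). tRNA, ribosomal and pseudogene sequences recur elsewhere in the genome, so the placement of these peaks is uncertain. This also holds for the pseudogene members n-R5s41 (579 bp) and Rn18s-rs5 (396 bp), named after their values were seen. How reads with several matches were treated is not given in the sources used here, and its part in these peaks was not tested.

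Of 76 matched lncRNA genes on a list of well known ones, 3 had a noncoding-end peak, where 1.58% of all lncRNA genes had one. No test of the list was made. Malat1, an abundant RNA of nuclear speckles, had chr19:5801500-5801899, 973 bp inside its start, with another peak 2.91 kb away. Chaserr, a lncRNA next to Chd2, had chr7:73558724-73559123, 528 bp before its start. The third was Snhg12. The only other gene of this list with a Gata1 peak at an end was Rmrp, whose peak was also at a coding end.

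The 10 peaks closest to a noncoding end were those at Mir1931 (1 bp), Gm40374 and 4930451G09Rik (4 bp each), Mir3473c (6 bp), A930019D19Rik (8 bp, inside Ralgapa2), Gm52308 (10 bp, inside Treml4), Gm18792 and Snora16a (15 bp each), Mir132 (18 bp) and n-TYgta10 (21 bp). They thus span lncRNA, microRNA, snoRNA, tRNA and pseudogene ends. Just inside the 1 kb limit lay the peaks at Gm33909 (980 bp), Gm50590 (983 bp) and LOC108168428 (991 bp), and just outside it those at Gm52337 (1018 bp), Gm40481 (1021 bp) and 2700054A10Rik (1023 bp), all lncRNA genes.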

How the data were processed

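Peak positions were the only values used. The authors deposited a list of 4135 intervals of 400 bp, each given as a chromosome, a start position and an end position, with no score or header; 2 lie on the mitochondrial chromosome and were left out. Per the submitters' processing notes, Bowtie2 2.0.6, MACS2 2.0.10 and build mm10 were used; for settings, threshold and use of the control, the sources used here give nothing. Depth is unknown.

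Positions are printed 1-based. Gene coordinates were those of RefSeq on GRCm38.p6 (mm10), without 340 entries starting below 3 Mb on autosomes or X: 21779 protein-coding and 27824 noncoding genes. Strand came from the RefSeq promoter and microRNA tables, and starts on chromosome 18 were not used. Starts on parts of other chromosomes were missing. The motif test was planned for peak intervals, and used the 300-base promoter windows holding a midpoint because only their sequences were at hand. Peak classes were compared with two-sided Fisher's exact tests, adjusted by Benjamini-Hochberg over 5 comparisons at 0.05. The fifth, a permutation test of distance, is not reported because the rule bounds distance. Shares carry 95% Wilson intervals. Python 3.11.15, numpy 2.4.6, scipy 1.17.1, pandas 2.3.3 and matplotlib 3.10.9 were used, and the rule was tested on simulated data.

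The members and gene lists were chosen with earlier results of these data known. Peaks are named at microRNA and other small RNA genes, at listed noncoding genes, where the nearest protein-coding gene is listed, within 10 kb of another, on X or Y, among the 10 closest to a noncoding end or the 5 furthest from protein-coding genes, and beside the 1 kb limit. Other names were chosen after their values were seen: those given for distances to listed genes between 50 and 100 kb, the genes with annotated starts nearby, part of the windows printed, and Gm40371. One snoRNA gene is not reported here. Alternatives were other distance limits, gene classes, motifs and list distances, and 4 added after the data were seen.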

Additional observations from a re-analysis of the deposited data

How the results depend on the processing

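The set had 161 peaks with a 500 bp limit, 368 with a 2 kb limit and 69 with predicted Gm and LOC symbols left out, by construction of those limits. The start share kept its direction under every alternative run, and passed in those where the classes hold different peaks. All of the latter leave peaks beside coding ends out of the noncoding-end class only, so they cannot separate the part of the rule. With peaks at coding ends kept, the classes share peaks and no test of that difference is given. The side of the end turned with the setting. The odds ratio for lying inside the gene was 1.31 at 500 bp and 1.24 for lncRNA genes alone, neither of which passed. At 2 kb it was 0.668 and passed, but gene length bounds this measure. At 2 kb the difference in median distance, which the limit bounds, was 268 bp, and at 500 bp the odds ratio for another peak within 10 kb was 1.92 and passed. The motif odds ratio fell to 2.65 for the letters GATA alone and to 2.14 in windows of at most the median GC, and neither passed. The cause was not tested for any of these. The share of noncoding genes with a peak was 0.924% with peaks at coding ends left out, 0.769% at 500 bp and 2.14% at 2 kb. For lncRNA genes it was 1.58%, 1.34% and 3.64% in the same order, for pseudogenes 0.0761% and 0.419% at 500 bp and 2 kb, and for microRNA genes 2.12% at 2 kb. Listed blood genes lay within 10 kb of 5 peaks (2.06%, against 3.58% of all nuclear peaks) and within 100 kb of 18 (7.41%, against 6.75%). Of 60 values recomputed, 39 were classed as the same. For counts and shares that class allowed large changes. It held 350 peaks with those at coding ends kept, against 243. It also held an snRNA share of 0.702% at 2 kb, against 0.201% at 1 kb. Alternatives chosen after seeing the data were the GC limit, the 2 kb gene length, keeping peaks at coding ends, and leaving out peaks at annotated coding starts.

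No paired analysis was possible because there is 1 ChIP library. The list has no depth, score or replicate. A peak is only called or not called, and no stricter threshold was tried.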

Other observations

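The 107 peaks at both a noncoding and a protein-coding end are not part of the set above, and 94 of them were nearest a lncRNA gene. 3 of these lay around Gadd45a, a stress-induced growth arrest gene, and the lncRNA E230016M11Rik, at 999, 785 and 26 bp from Gadd45a and 504, 23 and 834 bp from the lncRNA. At Jun, an AP-1 subunit, the midpoint lay 4 bp from Jun and 99 bp from Junos. Others lay at small RNA genes: Snord118 (1 bp, with Tmem107 at 270 bp), Snord68 (698 bp, with Rpl13 at 10 bp), Snord110 (674 bp, with Nop56 at 474 bp) and Rnu7 (436 bp, with Grcc10 at 280 bp). 4 were nearest a tRNA gene: n-TRcct3 (28 bp, with Mrpl58 at 730 bp), n-TDgtc16 (123 bp, with Tmpo at 222 bp), n-TEttc4 (269 bp, with Wbp4 at 740 bp) and n-TLaag4 (843 bp, with Polr3e, a subunit of RNA polymerase III, at 663 bp). The peak nearest Mir7036b (822 bp) lay 335 bp from an end of Add1, which encodes a protein of the red cell skeleton. These names were chosen after their values were seen.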
